A study of Mus musculus with 8 samples.

Results

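Iron handling transcripts were followed in sorted mouse Paneth cells, which lie deep in the crypts of the small intestine and secrete antimicrobial peptides, after tumor necrosis factor (TNF). The genes described are the 4 STEAP family members Steap1, Steap2, Steap3 and Steap4, together with Tfrc, Slc11a2, Slc40a1, Fth1, Ftl1 and Hmox1. These 10 genes were found by symbol among the 55414 genes of the count table, and all 10 passed the filter on low counts. Steap4 was selected on its measured values, namely its large rise between PBS and TNF in these same libraries, so its rise is described here without a test. The other 9 genes were named for their role in iron handling.

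Bulk RNA-seq gave a count for each gene in 4 PBS and 4 TNF libraries. Both groups were wild-type mice, C57BL/6J per the study's methods, the controls injected with phosphate-buffered saline (PBS) and the others with TNF, and Paneth cells were sorted from the small intestine 3 hours later. The sources used here give neither the dose of TNF nor the age of the mice. The labels call the libraries biological replicates. The study speaks of samples from individual mice, while the legend of its sorting figure says that sorted cells were pooled. Because the samples were bulk RNA, a change in the make-up of the sorted cells and a change in RNA per cell cannot be told apart.

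Iron enters a cell bound to transferrin through the transferrin receptor, or as ferrous iron through divalent metal transporters. Ferric iron must be reduced before such a transporter can carry it, and the STEAP proteins are membrane proteins of which several reduce ferric iron and cupric copper. Surplus iron is stored in ferritin, a shell of heavy and light chains, and leaves the cell through ferroportin, the only known iron exporter of mammals. In many of these mRNAs a short hairpin, the iron-responsive element (IRE), is bound by iron regulatory proteins when iron is scarce. This binding blocks translation when the hairpin lies before the coding sequence and protects the mRNA when it lies after it. In the intestine these proteins are best known from the absorptive enterocyte rather than from the Paneth cell.

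The hairpins of the member mRNAs are shown because ferritin, ferroportin and the transferrin receptor share this control element. Their counts did not move together after TNF. The part of the hairpins was not tested, and counts do not measure translation. Each stretch is 27 bases of the untranslated region (UTR), 5′ to 3′, from GENCODE M39 transcripts on GRCm39, with the 6-base loop in capitals.
Fth1 5′ UTR: tcctgcttcaaCAGTGCttgaacggaa
Ftl1 5′ UTR: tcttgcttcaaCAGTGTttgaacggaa
Slc40a1 5′ UTR: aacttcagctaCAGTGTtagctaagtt
Tfrc 3′ UTR, nearest the stop codon: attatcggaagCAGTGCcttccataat
Tfrc 3′ UTR, next: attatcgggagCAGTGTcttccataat
Tfrc 3′ UTR, next: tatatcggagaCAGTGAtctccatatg
Tfrc 3′ UTR, last: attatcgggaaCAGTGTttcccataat

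These sites were found as a C, 5 bases, the loop CAGTGN and 5 bases that pair with the first 5, G-U pairs allowed, on the transcript strand only. The Fth1 site lies at chr19:9960097-9960123 on the plus strand, the Ftl1 site at chr7:45109204-45109230 on the minus strand and the Slc40a1 site at chr1:45964626-45964652 on the minus strand. The 4 Tfrc sites lie between chr16:32450038-32450064 and chr16:32450529-32450555 on the plus strand. A match of this kind occurred in the 5′ UTR of 0.218% and in the 3′ UTR of 0.752% of 21553 protein-coding genes. No UTR of Slc11a2, Hmox1 or a STEAP gene held these letters in this form. The search asks for 5 paired bases in a row, so a hairpin with a bulge or a mispaired base is missed. A gene without a match, here or in the wider lists, may therefore still carry an IRE. In the wider iron lists described further on, the 5′ UTR of Alas2, the erythroid enzyme that opens heme synthesis, held the same letters. So did the 3′ UTR of 3 transcripts of Bola3, a mitochondrial iron-sulfur cluster factor, but not its canonical transcript.

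The promoter of Steap4 is shown because this gene had the widest change of the members. The 250 bases before its start are from RefSeq on GRCm38.p6, chr5:7960222-7960471, plus strand, with the motif matches in capitals.
Steap4 promoter: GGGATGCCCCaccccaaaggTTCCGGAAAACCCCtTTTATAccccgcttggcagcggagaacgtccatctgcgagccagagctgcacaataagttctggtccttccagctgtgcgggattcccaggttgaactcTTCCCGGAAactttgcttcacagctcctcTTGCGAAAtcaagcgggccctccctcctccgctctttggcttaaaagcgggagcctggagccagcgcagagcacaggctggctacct

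On either strand this stretch held 2 matches to the kappaB motif, 1 to the STAT motif TTCNNNGAA, 2 to the C/EBP motif TTNNGNAA and 1 to TATAAA, and none to the antioxidant response motif TGACNNNGC. The second kappaB match overlaps the first C/EBP match, and they appear as a single run of capitals. Among 32851 mouse promoters of the same length, 7.25% held a kappaB match, 7.02% a STAT match, 36.8% a C/EBP match, 12.4% a TATAAA match and 10.2% an antioxidant response match. Promoters were at hand for 7 of the 10 members, and Slc40a1, Slc11a2 and Hmox1 are named only. Steap1 held none of these motifs, while 1 of 3 Steap2 promoters, 1 of 4 Steap3 promoters and the Ftl1 promoter each held 1 kappaB match. These are matches of letters and do not show that a factor was bound.

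The libraries held 23824717 to 32576077 counts and 16712 to 19135 detected genes. Levels are given as normalized CPM, counts scaled to library size (CPM) after scaling by the trimmed mean of M-values (TMM). TNF replicate 4 stood apart from the other 7 libraries, with a scaling factor of 0.448 and 51.4% of its counts on alpha-defensin (Defa) genes, against 32.0% to 37.9% elsewhere. All 9 Paneth markers used to check the label were present. They summed to 311939 to 460009 normalized CPM in PBS, to 389033 to 453659 in TNF replicates 1 to 3 and to 1209550 in TNF replicate 4, where the low scaling factor raises normalized values, and Pla2g2a and Nupr1 were called higher in TNF. Among markers of other cells, the neutrophil genes S100a8, S100a9, Retnlg and Csf3r and the macrophage genes Adgre1, C1qb, C1qc and Cd163 had 0 counts in all 8 libraries. Of the other macrophage genes, Csf1r had 31 to 125 counts in each library, and C1qa had 24 in TNF replicate 4. Lyz2, Ptprc and Cd68 had counts in both groups. Goblet markers summed to 3681 to 5938 normalized CPM in PBS and 6391 to 7626 in TNF, with 2 of the 7 called higher and 2 lower. Muc2 rose from a mean of 1959 to 4715, whereas Fcgbp fell from 738 to 255, and Clca1 had 554, 44.0, 43.0 and 41.1 in PBS and 24.0, 24.2, 26.7 and 42.2 in TNF, with PBS replicate 1 far above the rest. Stroma markers summed to 0.260 to 0.452 and 1.23 to 1.70. Among them Vim rose from a mean of 0.272 to 1.16, with 3 to 18 counts in a PBS library and 10 to 38 in a TNF library. Enterocyte markers summed to 29.7 to 44.2 in PBS, to 15.7 to 20.2 in TNF replicates 1 to 3 and to 59.9 in TNF replicate 4, so that 3 TNF libraries lay below every PBS library and 1 above. Fabp2 made up 47.8 of the sum in TNF replicate 4. Apoa4 and Rbp2 were lower in every TNF library than in any PBS library. Apoa4 had 22 to 82 counts in a PBS library and 1 to 7 in a TNF library, and Rbp2 14 to 71 and 1 to 13. Erythroid markers, nearly all Epb42, summed to 24.3 to 32.3 in PBS and 13.1 to 21.4 in TNF. Epb42 was called lower (log2 fold change -0.74, edgeR adjusted p = 0.00313). Macrophage markers summed to 9.43 to 13.8 in PBS, to 12.8 to 15.1 in TNF replicates 1 to 3 and to 69.8 in TNF replicate 4, most of it Lyz2, and without Lyz2 to 2.13 to 3.19 in PBS and 2.94 to 5.50 in TNF. Neutrophil markers, nearly all Itgam, summed to 0.241 to 0.446 and 0.177 to 0.381. The part of these markers in the results below was not tested.

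After TNF the transcripts of the iron importers Slc11a2 and Tfrc rose, as did Steap1 and Hmox1, Steap3 fell, and Steap2 and the ferritin chains Fth1 and Ftl1 did not pass the test. Slc40a1 passed the filter on low counts only through the PBS group, where it was high, so it is described by its counts and left out of the numbers of called members, as is Steap4. Of the other 8 members, 5 were called at an adjusted p under 0.05 (edgeR quasi-likelihood F test, Benjamini-Hochberg over 13368 genes), 4 higher and 1 lower. Across all tested genes 43.0% were called, 23.4% higher and 19.6% lower in TNF, so a large share of the transcriptome moved along with these members. The same 5 members had TNF and PBS values that did not overlap, as did 42.1% of all genes. The median log2 fold change was 0.46 over these 8 members and 0.03 over all tested genes. With library size alone as the scaling, the median of all genes shifted to -0.38 and 757 genes were called higher and 2425 lower in place of 3122 and 2625. Of the 8 members, 2 were then called higher and 1 lower, and their median was 0.04.

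**Figure D1:**
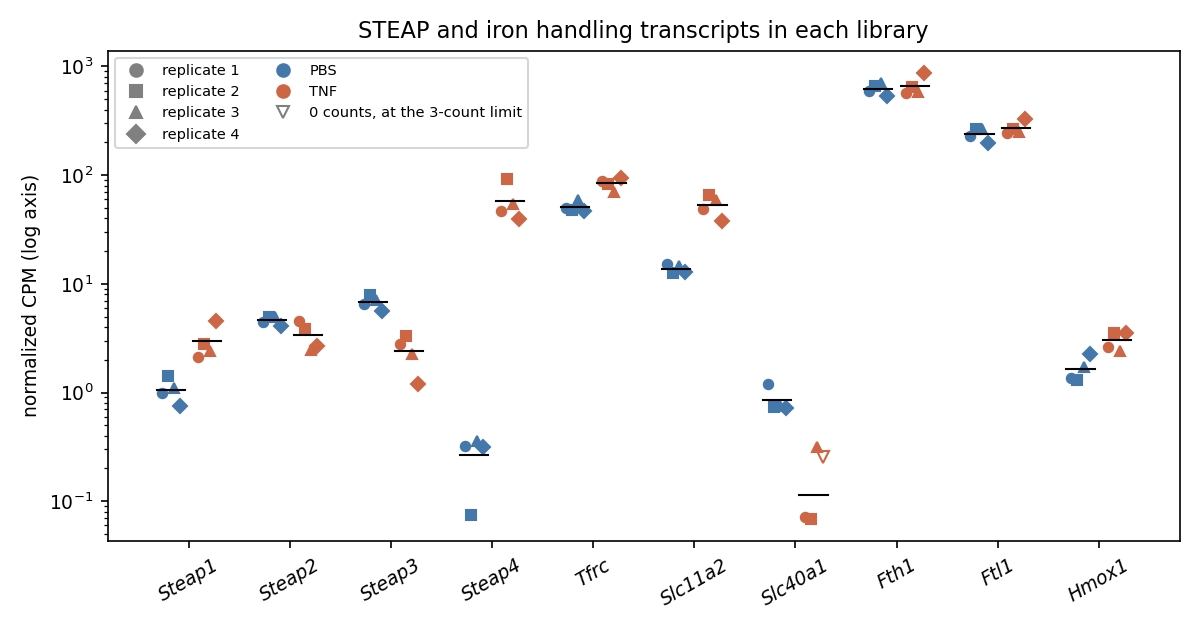
Normalized CPM on a log axis of the 10 members in each library, blue for PBS and orange for TNF, with the marker shape giving the replicate and the bar the group mean. Steap4 lies at 0.0744 to 0.355 in PBS and 39.1 to 91.3 in TNF, whereas the Fth1 and Ftl1 values of the groups overlap, and the open triangle places the TNF library with 0 Slc40a1 counts at its 3-count limit.

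Steap4 is a metalloreductase also known as TNF-induced adipose-related protein, a name given for its induction in fat cells. The gene (ENSMUSG00000012428) lies at chr5:8010260-8032214 on GRCm39, as do all gene positions that follow. PBS replicates 1 to 4 held 12, 2, 9 and 14 counts, or 0.322, 0.0744, 0.355 and 0.317 normalized CPM. TNF replicates 1 to 4 held 1315, 2639, 1538 and 455 counts, or 46.7, 91.3, 54.0 and 39.1 normalized CPM. Every TNF library was far above every PBS library, and the low count of TNF replicate 4 becomes the lowest but not a distant normalized value. The group means were 0.267 ± 0.129 in PBS and 57.8 ± 23.2 in TNF (SD, n = 4 each). From the summed counts the level was 221 times higher in TNF, with a 95% interval of 160 to 314 that covers counting error only, and the fitted log2 fold change was 7.70 (SE 0.39). Without TNF replicate 4 the fitted value was 7.86.

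Steap3 is the ferrireductase of the transferrin cycle, best known from red cell precursors. The gene (ENSMUSG00000026389) lies at chr1:120118487-120200435. Its normalized CPM were 6.49, 7.88, 7.09 and 5.68 in PBS and 2.80, 3.29, 2.28 and 1.20 in TNF. All TNF values were below all PBS values. The mean fell from 6.78 ± 0.933 to 2.39 ± 0.894 (SD, n = 4 each, log2 fold change -1.45, SE 0.24, edgeR adjusted p = 0.000776).

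Steap1 lacks the reductase domain that its relatives carry. The gene (ENSMUSG00000015652) lies at chr5:5786317-5799365, close to Steap2. Its normalized CPM were 0.992, 1.41, 1.10 and 0.747 in PBS and 2.13, 2.80, 2.39 and 4.55 in TNF, from 28 to 38 counts in a PBS library and 53 to 81 in a TNF library. The groups did not overlap, and TNF replicate 4 was the highest. The mean increased from 1.06 ± 0.276 in PBS to 2.97 ± 1.09 (log2 fold change 1.46, SE 0.30, edgeR adjusted p = 0.00240). Without TNF replicate 4 the log2 fold change was 1.23.

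Steap2, a reductase of iron and copper (ENSMUSG00000015653), lies at chr5:5714829-5744678. Its normalized CPM were 4.42, 4.98, 4.92 and 4.09 in PBS and 4.54, 3.81, 2.46 and 2.66 in TNF. TNF replicate 1 lay within the PBS range and the other 3 TNF libraries below it. The means were 4.61 ± 0.424 and 3.37 ± 0.983, and the log2 fold change of -0.43 (SE 0.21) did not pass the test (edgeR adjusted p = 0.121). Without TNF replicate 1 the value was -0.64 and was called (edgeR adjusted p = 0.0380).

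Within the STEAP family most counts came from Steap3 and Steap2 in PBS and from Steap4 in TNF. Steap4 made up 2.18% ± 1.11 of what the family held in PBS and 86.0% ± 3.89 in TNF (SD, n = 4 each). In single libraries this share ran from 0.518% (exact Clopper-Pearson 95% interval 0.0628% to 1.86%) to 2.92% in PBS. It ran from 82.3% (78.8% to 85.4%) to 90.2% in TNF. Steap3 held 53.3% ± 1.14 in PBS and 3.63% ± 1.04 in TNF, Steap2 36.3% ± 1.26 and 5.37% ± 1.99, and Steap1 8.26% ± 1.21 and 5.01% ± 3.09. These shares are counts not divided by gene length, they must sum to the whole, and the rise of Steap4 alone lowers the others, so they are given as a description. The family held 342 to 479 counts in a PBS library and 553 to 2925 in a TNF library.

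**Figure D2:**
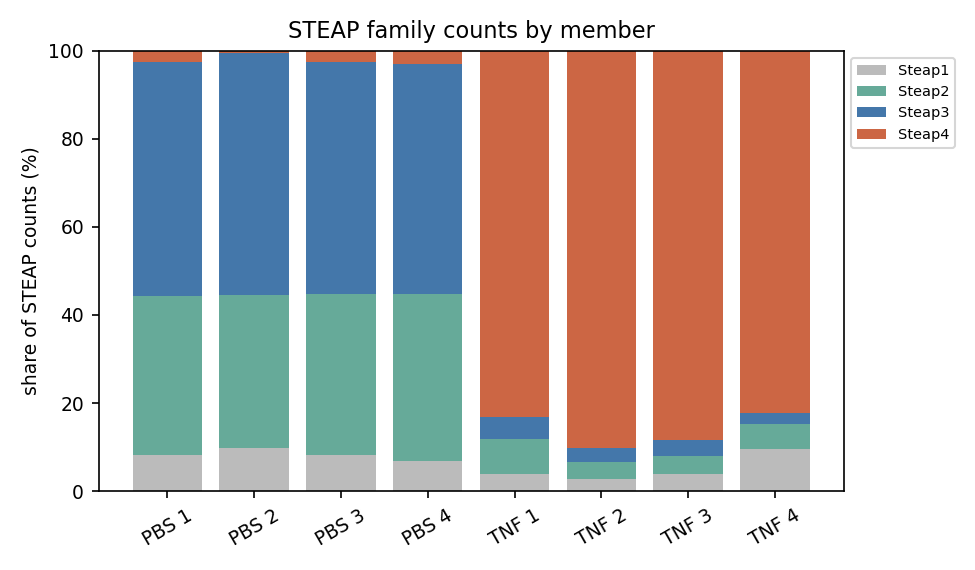
Share (%) of all STEAP family counts held by each of the 4 genes in each library, stacked to the whole. Steap3 holds 52.4% to 54.9% in the 4 PBS libraries and Steap4 holds 82.3% to 90.2% in the 4 TNF libraries.

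Slc11a2, also called DMT1, carries ferrous iron across the apical and endosomal membranes. The gene (ENSMUSG00000023030) lies at chr15:100285776-100322953. Its normalized CPM were 15.1, 12.6, 14.5 and 12.7 in PBS and 49.0, 65.4, 59.4 and 38.0 in TNF. The lowest TNF library was well above the highest PBS library. The mean increased from 13.7 ± 1.27 in PBS to 52.9 ± 12.1 (SD, n = 4 each, log2 fold change 1.95, SE 0.17, edgeR adjusted p = 8.50e-06). The annotated Gm5475 lies on the opposite strand with an overlap of 2926 bases and held 262 counts over the 8 libraries against 7237 for Slc11a2. The sources used here do not give whether counting used strand, and the log2 fold change of Gm5475 was 1.61 (edgeR adjusted p = 0.00214).

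Tfrc encodes the transferrin receptor, the main entry of transferrin iron. The gene (ENSMUSG00000022797) lies at chr16:32427556-32451612. Its normalized CPM were 50.2, 47.6, 59.7 and 46.3 in PBS and 88.7, 83.6, 69.9 and 94.1 in TNF, with no overlap. The mean increased from 50.9 ± 6.04 in PBS to 84.1 ± 10.4 (log2 fold change 0.72, SE 0.13, edgeR adjusted p = 0.00125). This call rests on the scaling, since with library size alone the value was 0.31 (edgeR adjusted p = 0.459).

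Slc40a1 encodes ferroportin. The gene (ENSMUSG00000025993) lies at chr1:45947211-45965683. PBS replicates 1 to 4 held 45, 20, 19 and 32 counts, or 1.21, 0.744, 0.749 and 0.724 normalized CPM. TNF replicates held 2, 2, 9 and 0 counts, or 0.0710, 0.0692, 0.316 and 0 normalized CPM, and 0 counts in TNF replicate 4 allow up to 0.258. Even with that limit no TNF library reached a PBS library, although all levels were low. The summed 116 PBS and 13 TNF counts give a level 6.48 times higher in PBS (95% interval 3.65 to 12.5, counting error only). The fitted log2 fold change was -2.68 (SE 0.55) and ran from -3.81 to -2.46 when single libraries were left out. Since the gene entered that fit only through its PBS libraries, its p from there is not given. In the fit of every gene with at least 1 count, where entry does not depend on a group, the value was -2.71 (edgeR adjusted p = 0.000329).

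Fth1, the ferritin heavy chain with the ferroxidase site, and Ftl1, the light chain, were the most abundant members. Fth1 (ENSMUSG00000024661) lies at chr19:9957911-9962462 and Ftl1 (ENSMUSG00000050708) at chr7:45107367-45109308. Fth1 had 596, 664, 705 and 531 normalized CPM in PBS and 569, 640, 581 and 869 in TNF. Of its TNF values 3 lay within the PBS range and that of TNF replicate 4 above it. The means were 624 ± 76.6 and 665 ± 140 (SD, n = 4 each), and the log2 fold change was 0.09 (SE 0.18, edgeR adjusted p = 0.712). It was -0.05 without TNF replicate 4, -0.02 without PBS replicate 4 and -0.36 with library size alone. Ftl1 had 227, 265, 266 and 198 normalized CPM in PBS and 244, 266, 251 and 328 in TNF, so that its groups overlapped too. Its means were 239 ± 32.9 and 272 ± 37.9, and the log2 fold change was 0.19 (SE 0.15, edgeR adjusted p = 0.345) but -0.23 with library size alone. Gm10252, annotated on the opposite strand over 416 bases of Ftl1, held 39771 counts against 56615 for Ftl1, so that the count of Ftl1 is uncertain. Annotated ferritin copies, counted as separate genes, held 22 counts beside 142663 for Fth1 and 78 beside 56615 for Ftl1.

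Hmox1 encodes the inducible heme oxygenase, which frees iron from heme. The gene (ENSMUSG00000005413) lies at chr8:75820241-75827217. Its normalized CPM were 1.37, 1.30, 1.73 and 2.24 in PBS and 2.63, 3.49, 2.42 and 3.52 in TNF. The groups came close, with 2.24 the highest PBS value and 2.42 the lowest TNF value. The mean increased from 1.66 ± 0.431 in PBS to 3.02 ± 0.575 (log2 fold change 0.84, SE 0.24, edgeR adjusted p = 0.0149). The call was lost without PBS replicate 1 (0.72, edgeR adjusted p = 0.0515), without TNF replicate 2 (0.71, edgeR adjusted p = 0.0531) and with library size alone (0.40, edgeR adjusted p = 0.423).

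Ratios of counts within a library do not depend on the scaling of the libraries. The log2 ratio of Tfrc to Slc40a1, the importer and the exporter transcript, was 5.36, 5.96, 6.28 and 5.98 in PBS and 9.97, 9.92, 7.71 and 11.10 in TNF, with 0.5 added to each count. All 4 TNF ratios exceeded all 4 PBS ratios, and the TNF library with 9 Slc40a1 counts had the lowest ratio of its group and that with 0 the highest. The difference was 3.78 (5.90 ± 0.383 against 9.67 ± 1.42, SD, n = 4 each). In a two-sided exact permutation test p was 0.0286, the smallest that 70 assignments allow, and 0.0571 after adjustment over the 2 ratios, which is above 0.05. The other ratio uses the Ftl1 count, which is uncertain because of Gm10252, as given above. The log2 ratio of Fth1 to Ftl1 was 1.40, 1.33, 1.41 and 1.42 in PBS and 1.22, 1.27, 1.21 and 1.41 in TNF. TNF replicates 1 to 3 were below all PBS libraries, while TNF replicate 4 lay within the PBS range. The difference of -0.11 (1.39 ± 0.0434 against 1.28 ± 0.0917) did not pass the test (exact permutation p = 0.114, adjusted p = 0.114). Without TNF replicate 4 the difference was -0.16, with an exact permutation p of 0.0286 before and after adjustment.

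**Figure D3:**
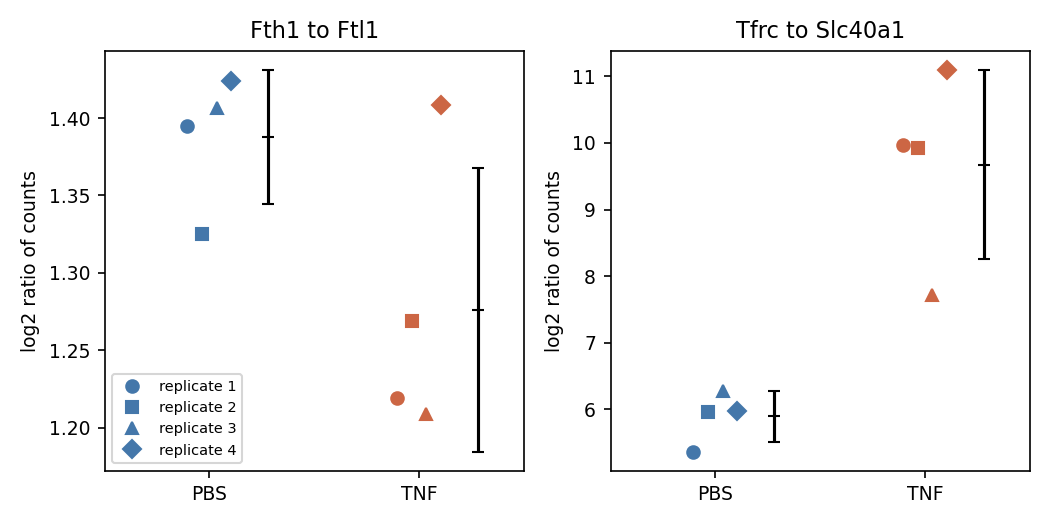
Log2 ratio of counts in each library, Fth1 to Ftl1 on the left and Tfrc to Slc40a1 on the right, with the mean and SD of the 4 libraries as bars and separate axes that do not start at 0. For Tfrc to Slc40a1 the TNF libraries lie at 7.71 to 11.10 and the PBS libraries at 5.36 to 6.28, and for Fth1 to Ftl1 the groups overlap through TNF replicate 4.

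Levels of different genes were compared as normalized CPM per kilobase of exon, since longer mRNAs give more reads. In PBS the order began with Ftl1 at 178 ± 24.5 and Fth1 at 177 ± 21.8, whose ranges overlapped, and Tfrc followed at 7.21 ± 0.854 per kilobase. Slc11a2 at 1.24 ± 0.114, Hmox1 at 0.944 ± 0.245 and Steap3 at 0.917 ± 0.126 came next, with overlaps between Slc11a2 and Hmox1 and between Hmox1 and Steap3. Steap1 at 0.371 ± 0.0964 and Steap2 at 0.370 ± 0.0340 overlapped, as did Slc40a1 at 0.0908 ± 0.0248 and Steap4 at 0.0742 ± 0.0360 per kilobase, which closed the order (SD, n = 4 each). Steap4 was thus the lowest member in PBS and came next after the ferritin chains in TNF, at 16.1 ± 6.45 per kilobase, overlapping with Tfrc at 11.9 ± 1.47. Ftl1 at 203 ± 28.3 and Fth1 at 189 ± 39.7 stayed at the top and overlapped. Below Tfrc came Slc11a2 at 4.78 ± 1.09, then Hmox1 at 1.71 ± 0.327 and Steap1 at 1.03 ± 0.381, which overlapped. Steap3 at 0.324 ± 0.121 and Steap2 at 0.270 ± 0.0789 overlapped, and Slc40a1 was the lowest at 0.0121 ± 0.0147 per kilobase. With the length of the longest transcript in place of all exons, Fth1 and Ftl1 changed places in both groups, and Hmox1 and Steap3 in PBS. The level of Ftl1 also rests on the count that Gm10252 makes uncertain.

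The genes whose log2 CPM were most like that of Steap4 over the 8 libraries were Kcns3 (r = 0.997), Tmc5 (0.997), Tgm2 (0.996), Orai1 (0.995) and Stk40 (0.995). Orai1 is a calcium channel subunit and Tgm2 a transglutaminase. All 5 were higher in every TNF library than in any PBS library. Since 942 genes had an r above 0.95, and the points share the libraries and the step between the groups, these values are given as a description.

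Of the wider iron, heme and copper genes, 65 of 76 passed the filter. Lcn2 and Hamp passed the filter only through the TNF group, where they were high, and Trf and Cox17, neither called, only through PBS. Of the other 61 genes 10 were called higher and 12 lower (edgeR, adjusted p under 0.05), with a median log2 fold change of -0.00651. Of all tested genes 43.0% were called, 23.4% higher and 19.6% lower, and against these shares this count and those of the smaller lists that follow are given as descriptions, not as results about the lists. With library size alone 1 of these 61 was called higher and 12 lower. Of the rises named here, those of Epas1, Fbxl5, Ciapin1, Slc25a28, Sco1 and Slc31a2 were not called under that scaling, where their values lay nearer to 0. The falls of Slc48a1 (-1.01, edgeR adjusted p = 0.0541) and Fech (-0.94, edgeR adjusted p = 0.0710) lay further below 0 with library size alone but were not called either. Among uptake genes and carriers 7 passed the filter in both groups, of which 1 was called, and their median was -0.11. The called gene was Cybrd1, the duodenal ferric reductase, which fell from 69.2 ± 2.06 to 40.2 ± 8.27 normalized CPM (log2 fold change -0.78, edgeR adjusted p = 0.00162). Lcn2, the siderophore-binding lipocalin, had 4, 2, 1 and 1 counts in PBS and 222, 308, 234 and 39 in TNF, a level 138 times higher by summed counts (95% interval 69.8 to 321, counting error only). Slc39a14, another metal importer, had a value of -0.13 (edgeR adjusted p = 0.354).

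Of the 9 export and hepcidin genes, 3 passed the filter in both groups, with 0 called by edgeR and 0 at an unadjusted p under 0.05, and their median was 0.28. Hamp, which encodes hepcidin, the hormone that degrades ferroportin, passed through the TNF group alone. It had 0, 0, 0 and 1 counts in PBS and 47, 177, 164 and 25 in TNF. All TNF libraries held Hamp reads, and the ratio of the summed counts was 568 with a wide 95% interval of 101 to 22502 (counting error only). Heph, the ferroxidase that works beside ferroportin, had a log2 fold change of 0.28 (edgeR adjusted p = 0.170). Cp, the ferroxidase ceruloplasmin, was below the filter with 56 summed counts in PBS and 22 in TNF.

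Of the sensing and storage genes 3 of 8 rose and 1 fell, beside 43.0% of all genes called, with a median of 0.25. Hif1a, a hypoxia-inducible transcription factor subunit, rose from 27.9 ± 0.870 to 134 ± 28.1 normalized CPM (log2 fold change 2.26, edgeR adjusted p = 2.19e-06). Its relative Epas1 rose by a log2 fold change of 1.00 (edgeR adjusted p = 0.00142), and Fbxl5, the iron-sensing ubiquitin ligase subunit that targets an iron regulatory protein, by 0.67 (edgeR adjusted p = 0.0103). Ncoa4, the receptor that delivers ferritin for degradation, had a log2 fold change of -0.67 (edgeR adjusted p = 0.00107). The iron regulatory proteins themselves did not pass the test, Aco1 with -0.41 (edgeR adjusted p = 0.0522) and Ireb2 with 0.22 (edgeR adjusted p = 0.125), nor did the iron chaperone Pcbp1 with 0.29 (edgeR adjusted p = 0.101). Without TNF replicate 4 Ireb2 (0.29, edgeR adjusted p = 0.0149) and Pcbp1 (0.38, edgeR adjusted p = 0.00944) were called, and Aco1 was called without PBS replicate 4 (-0.52, edgeR adjusted p = 0.0356), with the block on the replicate number (-0.42, edgeR adjusted p = 0.0261), with the filter of 1 CPM, with DESeq2 and with limma-voom.

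Of 18 tested heme genes 2 rose and 6 fell, a share near the 43.0% of all genes, with a median of -0.15. The 6 included Slc48a1, a heme transporter (log2 fold change -0.69, edgeR adjusted p = 0.00340), and the heme synthesis enzymes Urod (-0.67, edgeR adjusted p = 0.00351) and Fech (-0.62, edgeR adjusted p = 0.00551). Ppox, another enzyme of heme synthesis, named after its values were seen, rose (0.53, edgeR adjusted p = 0.00336), a call lost with library size alone (0.12). Hmox2, the constitutive heme oxygenase, fell from 11.5 to 7.63 normalized CPM (log2 fold change -0.59, edgeR adjusted p = 0.00350), the opposite direction to Hmox1. The regulators of Hmox1 transcription Nfe2l2 (-0.31, edgeR adjusted p = 0.0507) and Bach1 (0.41, edgeR adjusted p = 0.127) did not pass. Bach1 was called without TNF replicate 4 (0.59, edgeR adjusted p = 0.00397), and Nfe2l2 without PBS replicate 4 (-0.38, edgeR adjusted p = 0.0383) or TNF replicate 1 (-0.42, edgeR adjusted p = 0.0316), with the filter of 1 CPM, with DESeq2 and with limma-voom.

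Of 16 mitochondrial iron and iron-sulfur genes 2 rose and 2 fell, a share below the 43.0% of all genes, with a median of -0.01. Ciapin1, a factor of cytosolic iron-sulfur assembly, rose by 0.78 on the log2 scale (edgeR adjusted p = 0.000968) and Slc25a28, a mitochondrial iron importer, by 0.44 (edgeR adjusted p = 0.0196). The call of Slc25a28 was lost without PBS replicate 1 (0.35), PBS replicate 2 (0.40) or TNF replicate 2 (0.42), and with no filter beyond 1 count (0.39, edgeR adjusted p = 0.0651). Abcb10, a transporter of the mitochondrial inner membrane, had a log2 fold change of -0.51 (edgeR adjusted p = 0.00214). Of 9 copper genes that passed in both groups 3 rose and 2 fell, beside 43.0% of all genes called, with a median of 0.18. The copper-exporting ATPase Atp7b fell from a mean of 18.3 normalized CPM (14.7 to 25.5) to 2.28 (1.66 to 2.83, log2 fold change -3.04, SE 0.23, edgeR adjusted p = 3.38e-06). The related ATPase Atp7a, named after its values were seen, was called in the other direction (0.55, edgeR adjusted p = 0.0210), a call lost when PBS replicate 1, 2 or 3 was left out, or either of TNF replicates 2 and 3 (0.42 to 0.53), and with library size alone (0.17). Sco1, a copper chaperone of cytochrome oxidase, rose by 1.11 (edgeR adjusted p = 4.70e-05) and Slc31a2, a copper transporter, by 1.05 (edgeR adjusted p = 0.00302).

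**Figure D4:**
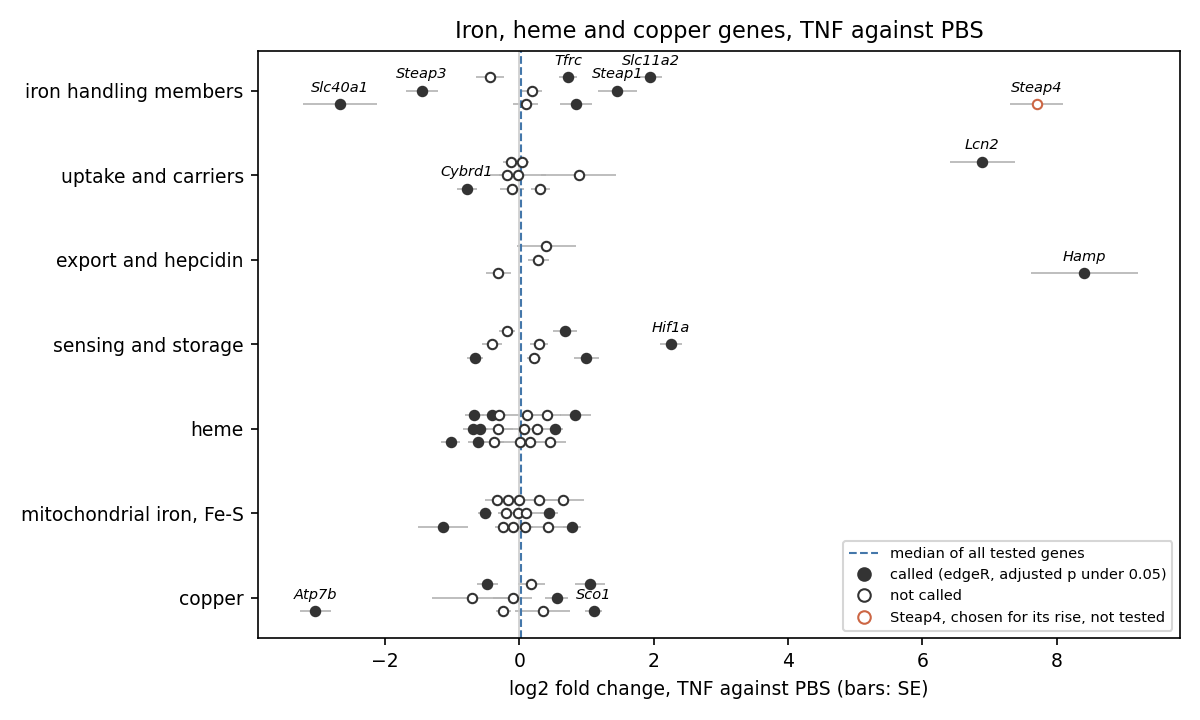
Log2 fold change, TNF against PBS, with its SE as a bar, of the 10 members and of the tested genes of the 6 wider lists, filled where the gene was called. The dashed line is the median of all tested genes at 0.03, and Steap4 (open, not tested), Hamp and Lcn2 lie furthest to the right, Atp7b and Slc40a1 furthest to the left. The Hamp value depends on the prior count, since 3 of its 4 PBS libraries had 0 counts, and Slc40a1, Lcn2 and Hamp, filled here, passed the filter through 1 group only.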

How the data were processed

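RNA of sorted Paneth cells was measured in 4 PBS and 4 TNF libraries. The authors deposited raw counts for 55414 Ensembl IDs, with no normalization. The submitters' processing notes name FastQC 0.12, STAR 2.7.10a, DESeq2 and the mm39 build. The sources used here do not give the counter or its treatment of strand and multi-mapping reads. Libraries were prepared with a stranded mRNA kit. GENCODE M39 names and positions were matched to 54749 IDs, and 665 were not matched.

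Genes were tested with edgeR 4.0.16 in R 4.3.3 (TMM, filterByExpr, quasi-likelihood F test, no covariate, Benjamini-Hochberg over all tested genes). SE came from the F statistic. On simulated data 90.5% of 189 changed genes among 13085 were recovered, and 2.84% of calls were false. The simulated libraries had no scaling factors of their own, whereas here 43.0% of genes were called and TNF replicate 4 had a factor of 0.448. These rates therefore need not hold for the calls given above. Ratios were compared by the absolute difference of group means over all assignments, counted by enumeration. A first run used a doubled one-sided p, which gave the same p with all 8 libraries, and this was changed after its values were seen.

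The members and lists were chosen with earlier results of these data known. The text names all members, up to 3 called genes with the largest change per wider list at a mean of at least 5 normalized CPM, 13 genes set by name, and the 5 genes most correlated with Steap4. Ppox, Atp7a, genes antisense to members, Alas2, Bola3, Trf, Cox17 and single marker genes were named after values were seen. STEAP shares, sequence motifs, summed-count intervals, overlapping genes, ferritin copies and the macrophage sum without Lyz2 were chosen after values were seen.

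Alternatives were RLE scaling, library size alone, TMM without Defa genes, no filter, a filter of 1 CPM in 4 libraries, DESeq2 1.42.0, limma-voom (limma 3.58.1), an adjusted p under 0.01, a block on the replicate number, other pseudocounts, transcript length and leaving out each library. Intervals at the 95% level and the 3-count limit cover counting error only.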

Additional observations from a re-analysis of the deposited data

Results flagged for a closer look

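In 6 of 74 groups of 4 values, 1 library lay far from the other 3 by Dixon's test at the 95% level, and chance gives about 5% of groups. Steap4 in PBS replicate 2 had 0.0744 normalized CPM, from 2 counts, against 0.317 to 0.355 in the other PBS libraries. Slc40a1 in PBS replicate 1 had 1.21, against 0.724 to 0.749. Fbxl5 in TNF replicate 4, the library with the lowest scaling factor, had 63.7, against 36.0 to 39.8. Fech in PBS replicate 4 had 26.3, against 29.1 to 29.6, and Ncoa4 in PBS replicate 3 had 22.1, against 19.3 to 19.6. Hamp in PBS replicate 4 had 0.0226, which is 1 count, against 0 in the other PBS libraries. None of these libraries was removed from the values above.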

How the results depend on the processing

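With library size alone, 3182 genes were called in place of 5747 and 15 of all 65 tested wider iron genes in place of 24 (13 in place of 22 among the 61 that passed the filter in both groups), and the log2 fold change changed sign for Fth1 (-0.36), Ftl1 (-0.23), Heph (-0.13), Ireb2 (-0.15) and Pcbp1 (-0.0497), none of them called. Fth1 was also negative without PBS replicate 4 (-0.02) and without TNF replicate 4 (-0.0499), and leaving out single libraries moved it up to 0.155. Leaving out single libraries gave 4756 to 6922 called genes, 5 to 7 of the 9 members (4 to 6 of the 8 without Slc40a1) and 19 to 34 of the wider genes (17 to 31 of the 61). Without TNF replicate 4 the counts were 6922 genes, 5 of the 8 and 31 of the 61. The ratio of Tfrc to Slc40a1 differed by 3.30 to 4.43 and that of Fth1 to Ftl1 by -0.16 to -0.0890, and without TNF replicate 4 both had an adjusted exact permutation p of 0.0286, where no smaller p was possible. With a pseudocount of 2 the first difference was 2.97.

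Same-numbered libraries did not pair (correlations of their deviations 0.0229, 0.0663, -0.144 and -0.126), and 2 of 4 PBS and 2 of 4 TNF libraries correlated best with their own number. With the replicate number as a block 5087 genes, 5 of the 8 members and 21 of the 61 wider genes were called, and both ratios, 3.78 and -0.11, had an exact sign-flip p of 0.125, the smallest possible. Slc40a1 and Hamp had no value under the filter of 1 CPM. With few Slc40a1, Hamp and Lcn2 counts in single libraries, depth limits how closely their folds can be given. The cause of these shifts was not tested.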
